A study of Trametes coccinea with 9 samples.

Results

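Cultures of the white-rot fungus *Pycnoporus coccineus* on pine, aspen and maltose were compared for the transcripts of 3 β-glucosidase genes, GH3 1411666, GH1 1449232 and GH3 1434274, out of 12690 genes counted. The numbers are those of the gene models, and GH1 and GH3 are glycoside hydrolase families. The 3 genes were chosen with their levels on pine, aspen and maltose already known, so their levels and differences are given as a description with no test. The files hold 6 other GH1 and GH3 genes, which make up the rest of the families in the CAZyme table of the study.

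β-Glucosidases act at the end of cellulose breakdown. Cellobiohydrolases release the disaccharide cellobiose from chain ends of cellulose, endoglucanases cut within the chains, lytic polysaccharide monooxygenases (LPMOs) of family AA9 cut them by oxidation, and β-glucosidases split cellobiose and short cello-oligosaccharides into glucose. Cellobiose dehydrogenase oxidizes the same cellobiose and so shares its substrate with them. Families GH1 and GH3 also hold other activities, β-xylosidases among them in GH3, so the family alone does not fix the substrate of a gene product.

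RNA was sequenced from 9 liquid cultures of strain CIRM-BRFM 310, 3 on pine, 3 on aspen and 3 on maltose, all kept for 3 days at 30 °C. The pine medium held 15 g/l of pine fragments, ground, sifted and with bark by the study's methods, and 2.5 g/l maltose. The aspen medium held 15 g/l of Wiley-milled aspen, and the methods give the same maltose for both woods, while the maltose medium held 20 g/l maltose and no wood. Wood and less maltose cannot be told apart in the comparisons with maltose, nor can the wood species and its preparation in pine against aspen. All cultures shared the strain and the mineral base with yeast extract. Total counts were 28399534 to 38654866 per library. Levels are CPM, counts scaled to the size of each library, with edgeR's TMM factors, which were 0.835 to 0.897 on pine, 1.03 to 1.05 on aspen and 1.03 to 1.27 on maltose. The highest factor, 1.27, was that of maltose replicate 3.

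The 3 genes followed 2 patterns. Transcripts of 1411666 and 1449232 were higher on both woods than on maltose and higher on aspen than on pine, whereas those of 1434274 were higher on pine alone, with nearly the same mean on aspen and maltose. In RNA from whole cultures, fewer cells that express a gene and less RNA per cell cannot be told apart.

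For GH3 1411666, levels were 113.9, 97.8 and 48.6 CPM in the pine cultures, 171.1, 122.9 and 161.6 CPM in the aspen cultures and 4.95, 4.12 and 8.52 CPM in the maltose cultures. These rested on 1210 to 3950 counts on pine, 4398 to 5980 on aspen and 149 to 324 on maltose. No pair of groups overlapped, although the highest pine culture came to 0.927 of the lowest aspen culture. The means were 86.8 ± 34.0 CPM on pine, 151.8 ± 25.5 CPM on aspen and 5.86 ± 2.34 CPM on maltose (SD, n = 3 each). As log2 differences from the fit to all libraries, pine minus maltose was 3.89, aspen minus maltose 4.69 and pine minus aspen -0.81. Leaving out each culture in turn gave 3.64 to 4.26, 4.49 to 5.06 and -1.05 to -0.52 for the same differences.

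GH1 1449232 was the least abundant of the 3 per kilobase on pine and maltose. It had 29.1, 19.0 and 10.8 CPM in the pine cultures, 50.3, 61.1 and 57.7 CPM in the aspen cultures and 1.95, 2.32 and 3.84 CPM in the maltose cultures. Again no pair of groups overlapped, and the gap between the woods was wider than for 1411666, with the highest pine culture at 0.579 of the lowest aspen culture. The means were 19.7 ± 9.18 CPM on pine, 56.4 ± 5.51 CPM on aspen and 2.71 ± 1.00 CPM on maltose. The log2 differences were 2.86 for pine minus maltose, 4.38 for aspen minus maltose and -1.52 for pine minus aspen. With only 66 to 146 counts per maltose library, against 269 to 1011 on pine and 1759 to 2187 on aspen, the maltose level of this gene was the least deeply sequenced of the values given for the 3 genes.

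GH3 1434274 departed from both. Its levels were 155.3, 244.9 and 187.4 CPM in the pine cultures, 23.2, 48.0 and 52.6 CPM in the aspen cultures and 38.9, 37.7 and 48.4 CPM in the maltose cultures. Every pine culture lay above every other culture, and the aspen and maltose cultures overlapped, with the lowest and the highest of these 6 both grown on aspen. The means were 195.9 ± 45.4 CPM on pine, 41.3 ± 15.8 CPM on aspen and 41.7 ± 5.87 CPM on maltose. The log2 difference was 2.23 for pine minus maltose and 2.25 for pine minus aspen. For aspen minus maltose it was -0.01, and it ran from -0.23 to 0.27 as each culture was left out.

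**Figure D1:**
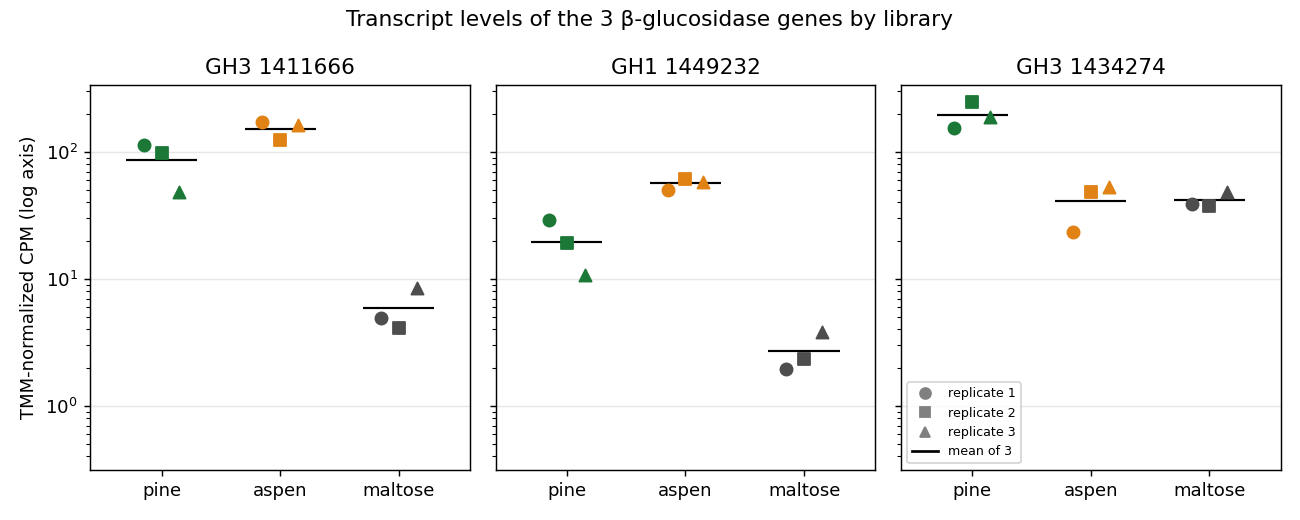
TMM-normalized CPM (log axis) of GH3 1411666, GH1 1449232 and GH3 1434274 in the 9 libraries, with pine, aspen and maltose from left to right, marker shapes for replicate numbers and a bar for the mean of 3. The aspen points are the highest for 1411666 and 1449232, at 122.9 to 171.1 and 50.3 to 61.1 CPM, whereas for 1434274 only the pine points stand apart, at 155.3 to 244.9 CPM.

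Counted by groups that did not overlap, 3 of the 3 genes were higher in every pine than in every maltose culture, as were 30.4% of all 11130 genes tested. Between aspen and maltose it was 2 of 3, against 32.4% of all genes. Between the woods, 1 of 3 was higher in every pine culture than in every aspen culture and 2 of 3 were lower, against 20.4% and 24.8% of all genes. Since the genes were chosen on these levels, nothing is read from these counts.

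Libraries were not alike in technical respects. By the study's library list, the reads of pine replicate 2 and aspen replicates 1 and 3 were trimmed to a greater length than the others, and the codes of aspen replicates 1 and 2 and maltose replicate 3 began with PAU and the others with PAW. Within the shorter-trimmed libraries, the log2 differences of pine minus maltose were 3.72 for 1411666, 2.75 for 1449232 and 2.04 for 1434274, and within the PAW libraries they were 4.16, 3.06 and 2.33. No PAU library was from pine, and no longer-trimmed library was from maltose, so those groups gave no such value. The pine minus aspen difference of 1434274 was 2.81 in the longer-trimmed, 1.83 in the shorter-trimmed and 1.87 in the PAW libraries, and those of 1411666 and 1449232 were below 0 in each. The aspen minus maltose differences of 1411666 and 1449232 were 3.83 to 5.14 within these groups. For 1434274 that difference took either sign, at 0.21 in the shorter-trimmed, -0.53 in the PAU and 0.46 in the PAW libraries. Each pine minus aspen and aspen minus maltose value within these groups had only 1 library for 1 of its substrates, so none is a replicated comparison.

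Ratios of 2 genes within 1 library do not depend on how libraries were scaled to each other. Per kilobase of gene span, the transcript level of 1434274 was 1.31 to 3.71 times that of 1411666 on pine, 0.131 to 0.376 times on aspen and 5.47 to 8.81 times on maltose. The order of the GH3 pair was therefore turned round on aspen, and the 3 ranges did not overlap. The ratio of 1434274 to 1449232 behaved alike between woods, with 3.40 to 11.1 on pine and 0.294 to 0.582 on aspen, while its maltose range of 8.04 to 12.7 overlapped that on pine. The pair with the same pattern kept closer together. The ratio of 1411666 to 1449232 was 2.59 to 3.41 on pine, 1.33 to 2.25 on aspen and 1.18 to 1.68 on maltose, above 1 in every library.

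**Figure D2:**
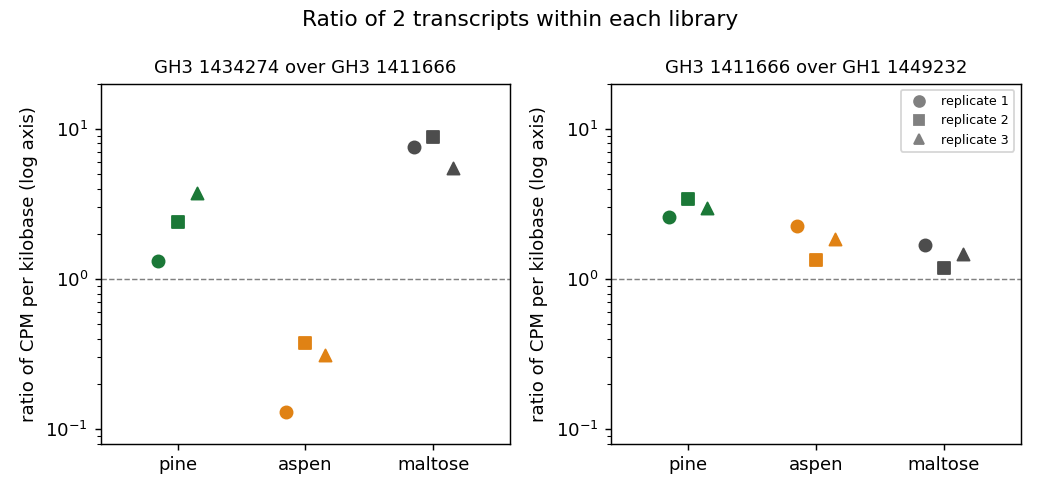
Ratio of CPM per kilobase (log axis) of GH3 1434274 to GH3 1411666 (left) and of GH3 1411666 to GH1 1449232 (right) in each library on pine, aspen and maltose, with a dashed line at a ratio of 1 and marker shapes for replicate numbers. The left ratio lies below 1 in all aspen libraries (0.131 to 0.376) and above 1 in all others, and the right ratio lies between 1.18 and 3.41 throughout.

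All 9 GH1 and GH3 genes together had 247.6 ± 73.1 CPM per kilobase on pine, 285.4 ± 32.9 on aspen and 44.9 ± 15.7 on maltose (summed level, SD, n = 3). The 3 genes made up 33.3% ± 3.42 of this sum on pine, 25.8% ± 1.72 on aspen and 30.6% ± 4.41 on maltose. This joint share was higher in every pine culture (29.4% to 35.5%) than in every aspen culture (24.5% to 27.8%). The maltose range of 25.7% to 34.2% overlapped both. On maltose, 1434274 had the highest mean of the 9 genes per kilobase, with 24.7% ± 4.52 of the sum, though its range of 19.6% to 28.3% overlapped the 17.1% to 23.9% of GH1 1370248. It still held 20.8% ± 4.72 on pine but only 3.74% ± 1.51 on aspen, where it ranked 8th. Gene 1411666 held 9.32% ± 3.22 on pine, 14.1% ± 1.30 on aspen and 3.42% ± 0.196 on maltose, and 1449232 held 3.24% ± 1.55, 8.01% ± 1.56 and 2.41% ± 0.329 on the same substrates. Among all 11123 tested genes with a known span, the mean level per kilobase of 1411666 ranked 3556 on pine, 2340 on aspen and 8920 on maltose. The ranks of 1434274 were 2030 on pine, 5385 on aspen and 5399 on maltose, and those of 1449232 were 6086, 3517 and 9362.

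**Figure D3:**
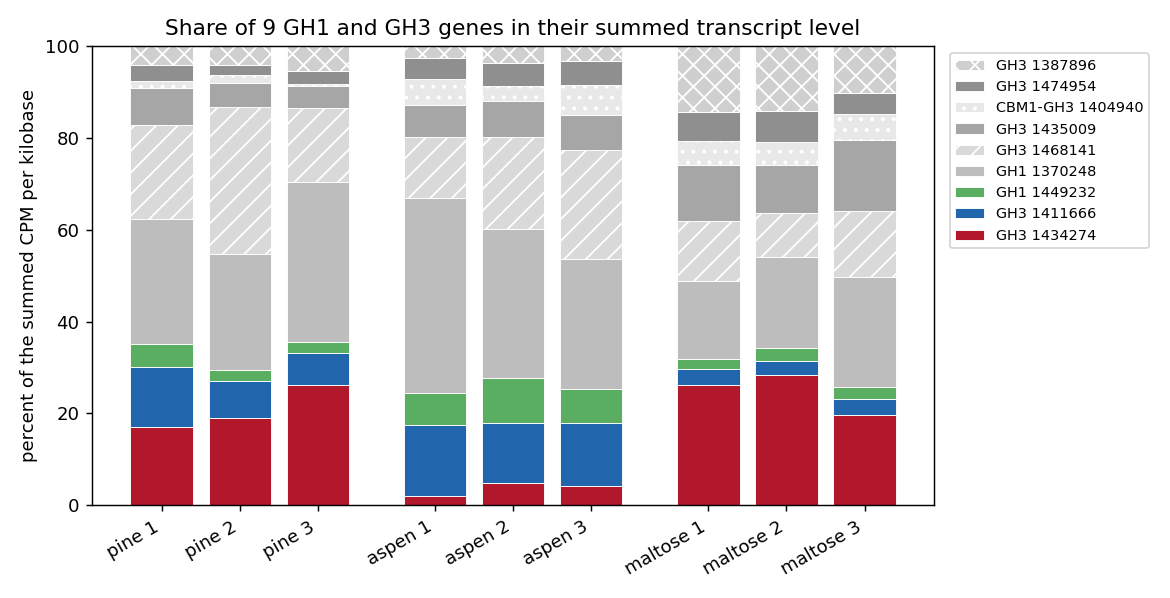
Percent of the summed CPM per kilobase of 9 GH1 and GH3 genes taken by each gene in each library of pine, aspen and maltose, with the 3 genes described here in colour at the bottom and the 6 others in grey. The red part, GH3 1434274, shrinks to a mean of 3.74% on aspen, against 20.8% on pine and 24.7% on maltose, while the blue part, GH3 1411666, is widest on aspen at 14.1%.

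The 6 other GH1 and GH3 genes were tested with edgeR's quasi-likelihood test and Benjamini-Hochberg adjustment over 11130 genes, at an adjusted p below 0.05. On pine against maltose 5 of 6 rose, beside 29.1% of all genes tested that rose and 28.8% that fell. On aspen against maltose 6 of 6 rose, beside 26.3% and 24.9% of all genes. The median of their log2 fold changes came to 1.35 for pine and 2.59 for aspen, against -0.03 and -0.02 over all genes. Between the woods, 2 of 6 were lower on pine than on aspen and 4 did not pass, with a median of -0.49, while 15.2% of all genes were higher on pine and 15.1% lower (median of all genes -0.05). For each of these 6 genes every aspen culture lay above every maltose culture, as for 32.4% of all genes tested. The aspen and maltose cultures of 1434274 overlapped, but that gene was chosen with its levels known, so nothing is read from this.

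GH1 1370248 had the highest mean level of the 9 per kilobase on both woods. It averaged 211.5 ± 33.6 CPM on pine, 295.8 ± 68.8 CPM on aspen and 28.4 ± 14.7 CPM on maltose, and rose on pine with a log2 fold change of 2.89 (SE 0.33, edgeR adjusted p = 9.9e-06) and on aspen with 3.38 (SE 0.34, adjusted p = 3.5e-06). The other GH1 gene, 1449232, was less abundant per kilobase in all 3 groups. GH3 1468141 rose by a similar amount, with log2 fold changes of 3.39 on pine (adjusted p = 6.7e-05) and 3.24 on aspen (adjusted p = 0.00012), though the pine value was 2.73 without pine replicate 2. Smaller rises were those of GH3 1474954, with 1.39 on pine and 2.49 on aspen, GH3 1435009, with 1.32 and 1.81, and GH3 1387896, with 1.00 and 0.66 (adjusted p = 0.0012 and 0.018). The call of 1387896 on aspen was lost without aspen replicate 2 or 3 or maltose replicate 1 or 2 (adjusted p = 0.0514 to 0.0809). GH3 1404940 carries a CBM1, a module that binds cellulose. It rose on aspen, with a log2 fold change of 2.68 (adjusted p = 0.0017), and had 0.53 on pine (adjusted p = 0.43). On pine against aspen it was lower, at -2.15 (adjusted p = 0.012), or -2.76 without pine replicate 2. Its value on pine against maltose hung on single cultures, since it was 0.99 without pine replicate 3 (adjusted p = 0.0493) and -0.08 without pine replicate 2. GH3 1474954 was the second gene lower on pine than on aspen, at -1.11 (adjusted p = 0.0026).

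**Figure D4:**
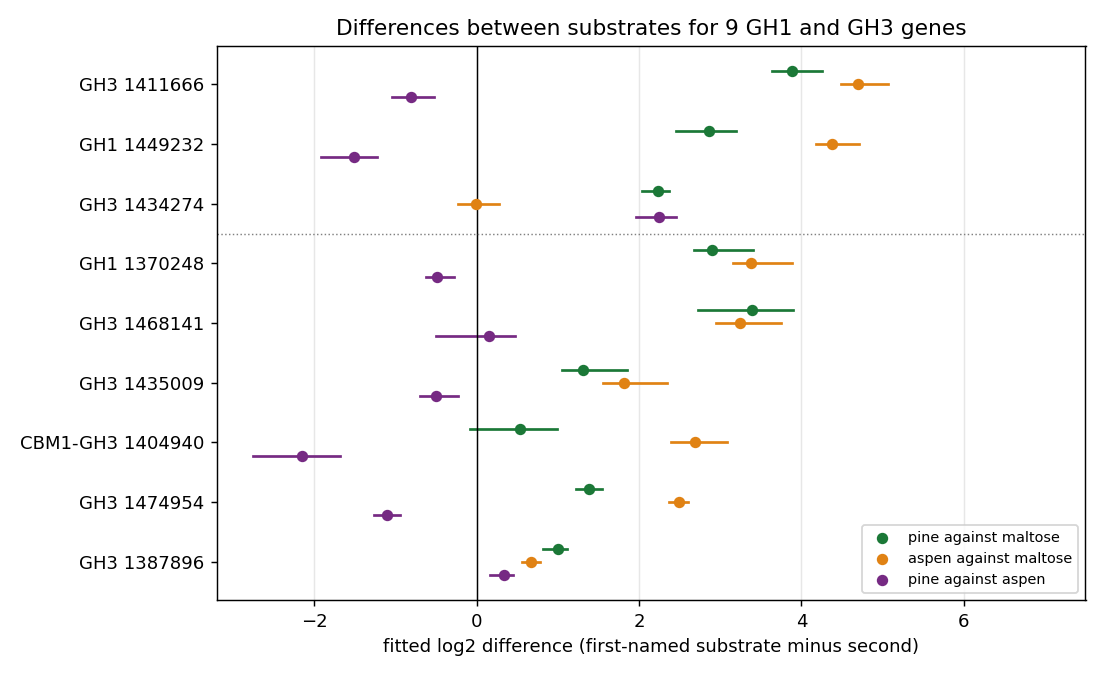
Fitted log2 differences of 9 GH1 and GH3 genes for pine against maltose, aspen against maltose and pine against aspen, with the 3 genes described here above the dotted line. Points are the fit to all 9 libraries and lines span the values with each culture left out in turn. For 1434274 the aspen against maltose point lies at -0.01 and the pine against aspen point at 2.25, while 1411666 and 1449232 lie at 4.69 and 4.38 on aspen against maltose.

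Within a group, the order of the cultures was partly shared by the 9 GH1 and GH3 genes. The order over all genes was not counted, so it is not shown to be particular to these families. Maltose replicate 3 had the highest level of its group for 9 of the 9 genes, the 3 described here included. Pine replicate 3 had the lowest level of its group for 6 of 9, among them 1411666 and 1449232, and for 1434274 the lowest was pine replicate 1. On aspen, replicate 3 was the highest for 6 of 9 and the lowest for none. Maltose replicate 3 was also the library with the highest TMM factor and the only maltose library of the PAU codes. The part of these in its levels was not tested.

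Cellobiohydrolases, endoglucanases with xyloglucanases, and AA9 LPMOs had higher median log2 fold changes than the 6 other GH1 and GH3 genes on both woods. That difference was not tested. The counts below stand beside 29.1% of all genes tested that rose and 28.8% that fell on pine, and 26.3% and 24.9% on aspen. Of 4 cellobiohydrolases, 4 rose on each wood, with a median log2 fold change of 5.35 on pine and 6.46 on aspen, and their summed level was 2483.5 ± 2362 CPM per kilobase on pine, 2526 ± 675 on aspen and 22.2 ± 23.3 on maltose. The steepest rises on pine were those of GH7 1424818 (log2 fold change 7.31, adjusted p = 6.1e-05) and GH6 1357326 (6.64, adjusted p = 4.8e-05). Single cultures moved both, to 8.79 and 7.82 without maltose replicate 3 and to 6.22 and 5.63 without pine replicate 2. Of 11 endoglucanases and xyloglucanases, 8 rose on pine (median 4.76) and 9 on aspen (median 5.80). On aspen 1 of them fell, a call lost without aspen replicate 1 or 2 or maltose replicate 1. GH45 1433077 rose by a log2 fold change of 7.15 on pine, or 7.83 without maltose replicate 3, and GH12 1358049 by 6.82, or 6.06 without pine replicate 2 (adjusted p = 1.8e-07 and 7.3e-07 in the fit to all libraries). Of 15 AA9 LPMOs, 15 rose on pine (median 3.84) and 14 on aspen (median 2.99). The steepest on pine were 1466495, with 8.54 (adjusted p = 8.1e-07), or 7.43 without pine replicate 2, and 1369390, with 4.92 (adjusted p = 1.5e-05), or 4.23 without pine replicate 2 and 5.54 without maltose replicate 3. The cellobiose dehydrogenase 1401955 rose with 4.59 on pine (adjusted p = 0.00014) and 5.66 on aspen (adjusted p = 4.7e-05), or 5.72 and 6.78 without maltose replicate 3, and its pine value was 3.88 without pine replicate 2. With trimmed read length as a term its aspen value was 4.90, and the pine values of 1424818, 1357326, 1358049, 1466495 and 1369390 were 6.52, 5.90, 6.20, 7.68 and 4.31, all still past the threshold. With library code as a term that of 1424818 was 8.11. Between the woods, the count of higher and lower on pine was 4 and 4 for the AA9 LPMOs and 1 and 3 for the endoglucanases and xyloglucanases, and 1 cellobiohydrolase was lower. Of all genes tested, 15.2% were higher on pine and 15.1% lower, and nothing is read from the counts of such short lists. The 1 endoglucanase or xyloglucanase called higher on pine was lost without pine replicate 1 or 2 or aspen replicate 1 or 2, and the count was 2 without pine replicate 3. The differences of the 3 β-glucosidase genes were 2.23 to 3.89 on pine and -0.01 to 4.69 on aspen. They lay below the medians of the cellobiohydrolases and of the endoglucanases and xyloglucanases on both woods. The lowest single cellobiohydrolase was at 2.50 on pine, below 1411666 and 1449232, and at 5.33 on aspen. Against the AA9 medians the genes were split. Gene 1411666 lay slightly above on pine and above on aspen, 1449232 (2.86 and 4.38) above on aspen alone, and 1434274 below on both. These comparisons were not tested.

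The genes beside the 3 in the genome were taken by position alone, as the 2 nearest annotated genes on each side. Of these 12 neighbours, 10 were expressed highly enough to be tested. On pine against maltose 5 rose and 5 fell, beside 29.1% and 28.8% of all genes, while 5 rose and 3 fell on aspen, beside 26.3% and 24.9%. Among those called, 1434273 rose and 452530 fell on both woods, each on the low counts given below. Beside 1411666, 1390886, a gene of the α-mannosidase family GH92, averaged 54.1 ± 28.2 CPM on pine, 60.6 ± 5.15 CPM on aspen and 5.57 ± 1.69 CPM on maltose. It rose with log2 fold changes of 3.28 on pine (adjusted p = 9.9e-06) and 3.44 on aspen (adjusted p = 7.7e-06), and pine minus aspen was -0.16 (adjusted p = 0.75).

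The annotated span of 1411666 overlaps those of both its direct neighbours, so reads from the overlaps may be assigned uncertainly. One of them, 1445359, had 261 to 736 counts on pine, 42 to 371 on aspen and 14 to 20 on maltose. It rose on pine (log2 fold change 5.22, adjusted p = 4.9e-05) and on aspen (3.47, adjusted p = 0.0011, or 2.48 without aspen replicate 3), and it was higher on pine than on aspen, at 1.75 (adjusted p = 0.04), the opposite order to that of 1411666. That last call was lost without pine replicate 1 or 3, aspen replicate 1 or 2 or maltose replicate 1 or 3 (adjusted p = 0.0506 to 0.161), and the value was 2.74 without aspen replicate 3. It was also lost with library size only (adjusted p = 0.0757), with trimmed read length (0.148) or library code (0.235) as a term, in a fit to the 2 woods alone (0.0742) and by the Wald test of DESeq2 (0.0615). The other, 452530, had 2 to 4 counts on pine, 4 to 8 on aspen and 21 to 37 on maltose, and fell by 2.73 on pine (adjusted p = 0.001) and by 2.29 on aspen (adjusted p = 0.0026) on the log2 scale. The overlapping models thus moved in different directions, and their counts were below those of 1411666 in every library. The margin was uneven, with 736 counts of 1445359 against 1210 of 1411666 in pine replicate 3 and 42 against 5980 in aspen replicate 1. What the overlap does to the pine and aspen levels of 1411666 was not tested.

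Beside 1434274, no tested neighbour had its pattern. Gene 1434275, of the oxidoreductase family AA3_2, averaged 9.85 ± 2.33 CPM on pine, 15.97 ± 5.04 CPM on aspen and 4.44 ± 0.521 CPM on maltose, and rose on both woods, with 1.15 on pine (adjusted p = 0.0035) and 1.85 on aspen (adjusted p = 0.00014). The next gene, 1458413, rose with 2.77 on pine (adjusted p = 2.4e-05) and 3.82 on aspen (adjusted p = 2.3e-06). Both had their highest mean on aspen, where 1434274 stood at its maltose level. On the other side, 1434273 had 2 to 8 counts on pine, 12 to 16 on aspen and 0 in all maltose libraries, and 208620 had at most 4 counts in any library.

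Beside 1449232, all 4 neighbours fell on pine, against 28.8% of all genes tested, while 1449232 itself was higher there than on maltose. The nearest gene on one side, 1402464, averaged 5.90 ± 1.65 CPM on pine, 7.75 ± 0.700 CPM on aspen and 44.0 ± 5.53 CPM on maltose, and fell by 2.90 on pine (adjusted p = 5.5e-07) and by 2.51 on aspen (adjusted p = 1.6e-06) on the log2 scale. The falls of 1430367 (1.07, adjusted p = 0.023), 1456077 (0.93, adjusted p = 0.0045) and 1430373 (0.78, adjusted p = 0.0028) on pine were smaller. Neither 1430367 (log2 fold change -0.14, edgeR adjusted p = 0.77) nor 1430373 (-0.28, adjusted p = 0.22) passed on aspen against maltose. On aspen 1456077 fell by 0.64 (adjusted p = 0.036), a call lost without aspen replicate 2 or 3 or maltose replicate 1 or 2 (adjusted p = 0.116 to 0.145) and with trimmed read length (0.0844) or library code (0.136) as a term, and that of 1430367 on pine was lost without pine replicate 2 or maltose replicate 1 or 2 (adjusted p = 0.0512 to 0.0694).

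Likeness of profile was measured as the root mean square difference of log2 CPM over the 9 libraries after each gene was centred on its own mean, so that a smaller value is more alike. Against 1411666, the median over the 11129 other genes was 2.16, and the gene 1449232 came to 0.51 at rank 39. The most alike genes of the CAZyme table were the AA3_3 alcohol oxidase 1465271 (0.33, rank 4) and the GH28 polygalacturonases 1446047 (0.33, rank 5) and 1377553 (0.36, rank 8). Seen from 1449232, 1411666 stood at rank 32, and the closest gene of all was 1432550 of family GH5_15 (0.26, rank 1), with 67.3 CPM on pine, 222.4 CPM on aspen and 11.9 CPM on maltose. The GH28 gene 1446047 was again among the most alike (0.38, rank 7), followed by 1373375 of family CE16 (0.39, rank 9).

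The profile of 1434274 was unlike both, but the rank depended on the gene it was seen from. Profiles were centred and not scaled, so genes that vary strongly lie far from most others. From 1411666, 1434274 stood at rank 4772 of 11129 (2.08, median 2.16), and from 1449232 at rank 6998 (2.06, median 1.93). Seen from 1434274 itself, the other 2 genes stood at ranks 10598 and 10569, past the median of 1.28. Its most alike genes of the CAZyme table were the GH20 gene 1434713 (0.49, rank 63), the AA3_4 pyranose oxidase 1471985 (0.50, rank 71) and the GH47 gene 1423703 (0.51, rank 75). Without pine replicate 2, the AA9 gene 1440889 took the place of 1423703. Pyranose oxidases oxidize sugars such as glucose, the product of β-glucosidases, and form hydrogen peroxide. Gene 1471985 averaged 4620 CPM on pine, 958 CPM on aspen and 741 CPM on maltose, and thus was also highest on pine, with its aspen level slightly above that on maltose.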

How the data were processed

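Per the labels, the authors aligned the paired reads of 9 libraries with TopHat2, on the strain's own genome, and obtained counts per gene from HTSeq. They deposited raw counts for 12690 genes and counts normalized with DESeq (version 1.5 in the submitters' notes), a signal that is 1 constant per library times the raw counts, for 11202 genes. The fit of the raw counts used edgeR version 4.0.16 under R version 4.3.3 (TMM, glmQLFit, glmQLFTest, 3 groups in 1 fit, Benjamini-Hochberg adjustment). Following the study's methods, only the 11130 genes averaging at least 5 raw counts per library entered the fit. The biological coefficient of variation was 0.244, and the study's results section describes the cultures as independent. SE was obtained approximately, as the absolute log2 fold change over the root of the F statistic.

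The 3 genes, the gene lists and the naming rule (the 3 genes, the other GH1 and GH3 genes, the 2 steepest of each list on pine, 2 neighbours on each side and the 3 most alike CAZyme genes) were chosen with earlier results of these data known. Families come from the study's tables. Gene order and spans come from the RefSeq table of assembly Pycco1, which matched 12680 gene numbers. Spans include introns, since coding lengths were not used here. Scripts were tested on simulated data. Alternatives included DESeq2 version 1.42.0 and limma version 3.58.1 with a pseudocount of 1 on the deposited normalized counts.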

Additional observations from a re-analysis of the deposited data

How the results depend on the processing

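Alternatives were DESeq2's size factors, library size only, no count filter, a replicate block, trimmed read length or library code as a term, fits to 2 groups, each culture left out, the Wald test of DESeq2 and limma on the normalized counts. For the 3 genes, 1 value moved by more than the spread between cultures, the pine minus maltose log2 difference of 1434274, which was 1.86 with library size only. The counts of the 6 other GH1 and GH3 genes stayed within 1.5 times in every alternative. Library size only moved the median log2 of all genes to -0.39 for pine against maltose, -0.12 for aspen against maltose and -0.31 for pine against aspen, and the share of called genes that were higher to 34.8% in the first (50.2% with TMM) and 25.1% in the last (50.2% with TMM). It gave 906 genes higher and 2709 lower on pine than on aspen, against 1692 and 1676 with TMM. With library code as a term these were 682 and 771, 1102 were lower without pine replicate 2 and 1056 higher without aspen replicate 1. The endoglucanases and xyloglucanases higher on pine than on aspen numbered 0 to 2 (main count 1), those lower on aspen than on maltose 0 or 1, and the AA9 LPMOs lower on pine than on aspen were 2 with library code as a term (main count 4).

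Values that changed sign under an alternative, none of the tested ones past the threshold with that sign, were on pine against maltose those of 1404940 (-0.041 with trimmed read length as a term, -0.080 to 0.99 with each culture left out), on aspen against maltose those of 1430367 (0.41 with trimmed read length as a term) and 1434274 (untested, 0.0082 with library code as a term, -0.23 to 0.27 with each culture left out), and on pine against aspen those of 1468141 (-0.13 with library size only, -0.50 to 0.48 with each culture left out), 1390886 (0.013 with library code as a term, -0.56 to 0.18 with each culture left out) and 1424818 (-0.70 to 0.88 with each culture left out, -0.26 with limma). With library size only, the calls of 1435009 on pine (adjusted p = 0.0683) and 1387896 on aspen (0.0651) were lost, and with trimmed read length as a term that of 1387896 (0.121), while 1404940 on aspen came to 1.74. Calls of 1445359 and 1456077 lost in this way are given with their values above. The cause was not tested.

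Whether replicate numbers pair the cultures was left undecided. Deviations of same-numbered libraries correlated at -0.05 to 0.31 and those of libraries with different numbers at -0.21 to 0.22, ranges that overlap. With a replicate block, the log2 difference of 1434274 was 2.21 on pine and -0.09 on aspen against maltose, and 5 and 6 of the 6 other GH1 and GH3 genes rose. Not every library correlated best with its own number.

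Limits are 3 cultures per group, 66 to 146 counts of 1449232 on maltose, and shares that depend on gene spans (1449232 took 6.01% of counts on aspen when not divided by length, 8.01% when divided). The total counts per library equal the study's numbers of reads mapped as paired ends, so both reads of a pair may have been counted. Fewer fragments than counts may then stand behind a low value.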
